A study of Mus musculus with 6 samples.

Results

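The signal of Cd44 was followed probe by probe in papillomas, benign skin tumours, from mice labelled as Atf2 wild type or Atf2 knockout. All probes that the platform annotation of the array assigns to the gene symbol Cd44 were taken, which gave 10 of the 46116 probes on the array. The gene itself was selected on its intensities in the comparison of the knockout pool with the wild-type pool. Each pool of papilloma RNA was hybridised to 3 Illumina bead arrays, a format in which every probe is carried on many beads and gives 1 intensity per array. The wild-type pool held RNA from 2 mice and the knockout pool RNA from 3 mice, all of mixed FVB and C57bl6 background and aged about 9 months. Every mouse, in either group, had received 1 dose of the mutagen DMBA and then the tumour promoter TPA for 30 weeks, so neither pool is untreated skin. No source used here names the kind of knockout allele.

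CD44 is a glycoprotein of the cell surface and the main receptor for hyaluronan, a long sugar chain of the extracellular matrix. Its gene has constant exons, found in every isoform, and a block of variable exons that are spliced in or out, so that cells make a standard form and a range of longer variant forms. Keratinocytes, leukocytes and fibroblasts all carry CD44 at their surface, and in the epidermis it is known for its part in holding hyaluronan and in keratinocyte growth.

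A pool's 3 arrays are repeat measurements of its RNA. Every error and p-value below therefore covers technical spread among 3 arrays of 1 RNA pool, and the genotype has no replicate check. Chip position cannot be told apart from genotype, since the pools sat in separate stretches of the chip. The median raw intensity of an array lay at 135.8 to 148.2 in the wild-type pool and at 109.9 to 135.5 in the knockout pool. The share of probes above background was 31.7% to 33.3% for wild type and 28.1% to 29.9% for knockout, a probe being above background when it was over the array's most frequent intensity by 3 SDs of the values below it. The targeted gene was close to background: of 4 Atf2 probes, 3 were above it on no array and probe 2260348 on 3 wild-type arrays and 1 knockout array, and no source used here places these probes relative to the deleted part. Krt5 and Krt14, keratins of basal keratinocytes, were bright in both pools, at mean raw intensities of 6607 (wild type) and 6403 (knockout) for Krt5 and of 48752 and 44034 for Krt14.

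Large losses on some Cd44 probes stood beside nearly level signals on others. Of the 10 probes, 7 exceeded background on each wild-type array. In the knockout pool 5 of these 7 were at least 2-fold lower, with log2 differences from -1.45 to -2.75, and 2 were within 2-fold. The 3 remaining probes were above background on no wild-type array. Cd44 was taken up with this contrast already known, so these differences are given as a description with no test. Of all 13821 tested probes with wild-type signals over background on each array, 6.53% were at least 2-fold lower. With limma's adjusted p under 0.05 required as well, 3.9% of all 23058 tested probes were lower and 0.984% higher, 4.88% in all. Differences subtract the wild-type from the knockout mean, on the log2 scale of background-corrected, quantile-normalized intensity unless another scale is named. In whole tumour RNA fewer cells of a type and less RNA per cell cannot be told apart.

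The largest fall was on probe 6860148, annotated to the RefSeq transcript NM_009851. Its raw intensity was 1341.2, 1461.2 and 1415.6 for the wild-type arrays in order of their number and 181.4, 186.2 and 230.0 for the knockout arrays. All 3 knockout arrays lay far under the wild-type arrays, though still above background. The mean was 1406 ± 60.6 in the wild-type pool and 199 ± 26.8 in the knockout pool (SD, n = 3 arrays each), a log2 difference of -2.75 (SE 0.17), or 6.71-fold lower.

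Probe 5860411, annotated to the same transcript, read 830.8, 906.3 and 822.4 across the wild-type arrays, against 198.4, 170.8 and 147.5 across the knockout arrays. The pools did not overlap, and the knockout arrays were close to the background limit. The log2 difference was -2.27 (SE 0.09), or 4.83-fold lower. Probe 4850671 read 1139.9, 1155.5 and 1080.5 across the wild-type arrays, against 249.0, 208.3 and 234.0 across the knockout arrays. It was above background on all 6 arrays with no overlap, and its log2 difference was -2.14 (SE 0.12), or 4.42-fold lower. This probe is annotated to NM_009851 as well.

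The remaining lower probes were dimmer and came down to the background of the knockout arrays, so that their falls are less well bounded. Probe 3990072 read 499.5, 492.9 and 483.7 across the wild-type arrays, against 173.6, 157.4 and 140.5 across the knockout arrays, of which 2 were above background. Its log2 difference was -1.57 (SE 0.08), or 2.96-fold lower. Probe 7050551 read 395.1, 363.3 and 333.0 across the wild-type arrays, against 138.5, 138.8 and 112.3 across the knockout arrays. It was above background on no knockout array and was at least 2.14-fold lower, a bound taken against the lowest normalized signal of probes above background. Its measured log2 difference was -1.45, and like the other probes of this group it is annotated to NM_009851.

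**Figure D1:**
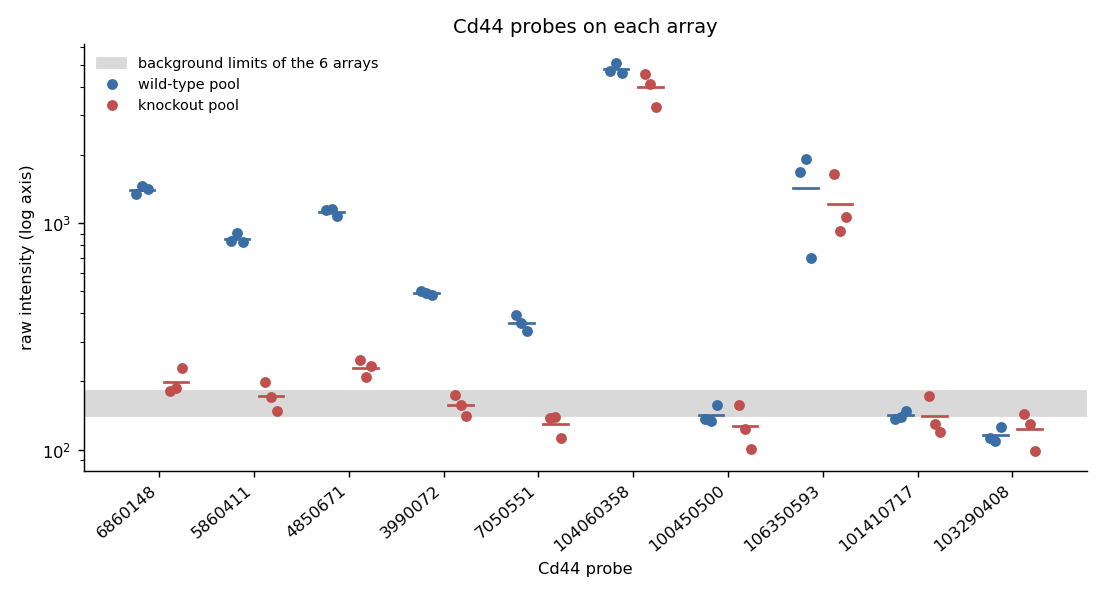
Raw intensity (log axis) of the 10 Cd44 probes on each array, ordered by the log2 difference between the pools; points are arrays 1 to 3 from left to right, short lines are pool means, and the grey band spans the background limits of the 6 arrays. The 5 probes on the left fall from 333.0 to 1461.2 in the wild-type pool to 112.3 to 249.0 in the knockout pool, while probe 104060358 stays between 3263.0 and 5083.2.

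The largest of these falls (6860148, -2.75) and the smallest (7050551, -1.45) differed by more than the spread between arrays on the log2 scale. However, 7050551 was above background on no knockout array, so it cannot be said to have fallen less. With each array's most frequent intensity subtracted, the 3 lower probes above background on all knockout arrays kept 6.77% (6860148), 8.20% (5860411) and 11.8% (4850671) of their wild-type signal in the knockout pool. These shares use raw intensities not normalized between arrays, and the knockout arrays were dimmer as a whole. No share is given for the other lower probes, whose knockout signal was not above background on every array.

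Probe 104060358, annotated to the cDNA AK045226, stayed at a high level in both pools. Its raw intensity was 4697.5, 5083.2 and 4627.2 across the wild-type arrays, against 4561.3, 4131.3 and 3263.0 across the knockout arrays. The pools did not overlap, but they lay close together, and the knockout arrays are dimmer as a whole. The mean was 4803 ± 246 against 3985 ± 661 (SD, n = 3 arrays each), and after normalization the log2 difference was -0.11 (SE 0.08). In raw intensity with the background taken off, not normalized between arrays, 82.8% of the wild-type signal was left.

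Probe 106350593, annotated to NM_009851, also kept its signal, with a wide spread. It read 1684.4, 1921.6 and 704.3 across the wild-type arrays, against 1649.0, 919.4 and 1066.4 across the knockout arrays. The pools overlapped, and the lowest of the 6 values came from wild-type array 3. After normalization the log2 difference was 0.06 (SE 0.31). Of the raw signal over background, not normalized between arrays, 83.9% was left in the knockout pool. The SD of its normalized wild-type values was 0.81, against a median of 0.07 over the 13821 tested probes described above, and none of the others had an SD as large. Without wild-type array 3 the log2 difference was -0.41, and without wild-type array 2 it was 0.33, so the value of this probe turns on single arrays but stayed within 2-fold.

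The last 3 probes did not exceed background on any wild-type array. Probe 100450500, annotated to NM_009851, read from 133.2 to 157.9 on the wild-type arrays and from 100.4 to 157.6 on the knockout arrays. Probe 101410717, annotated to the same transcript, read from 136.7 to 148.5 and from 119.0 to 172.4, and was above background on 1 knockout array. Probe 103290408, annotated to the cDNA BC025635, read from 108.9 to 125.6 and from 98.4 to 143.4, and was too dim to be tested. No fold is given for these probes. Counted over all 10 probes on normalized values, 6 had all knockout arrays under all wild-type arrays and 2 had them above, where 20.6% and 27.8% of the tested probes had their arrays apart in these directions.

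The authors' deposited log2 values placed the same probes on the same sides. Probe 6860148 went from 10.37 ± 0.06 in the wild-type pool to 7.94 ± 0.36 in the knockout pool (SD, n = 3 arrays each), a difference of -2.43. The differences of probes 5860411, 4850671, 3990072 and 7050551 in those values were -1.93, -1.90, -1.26 and -1.09, each smaller than in the background-corrected values. Probes 104060358 and 106350593 were at -0.11 and 0.05. Over all settings tried with 6 arrays, the lower probes ran from -1.09 to -3.57, and with 1 array left out from -1.39 to -3.01.

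**Figure D2:**
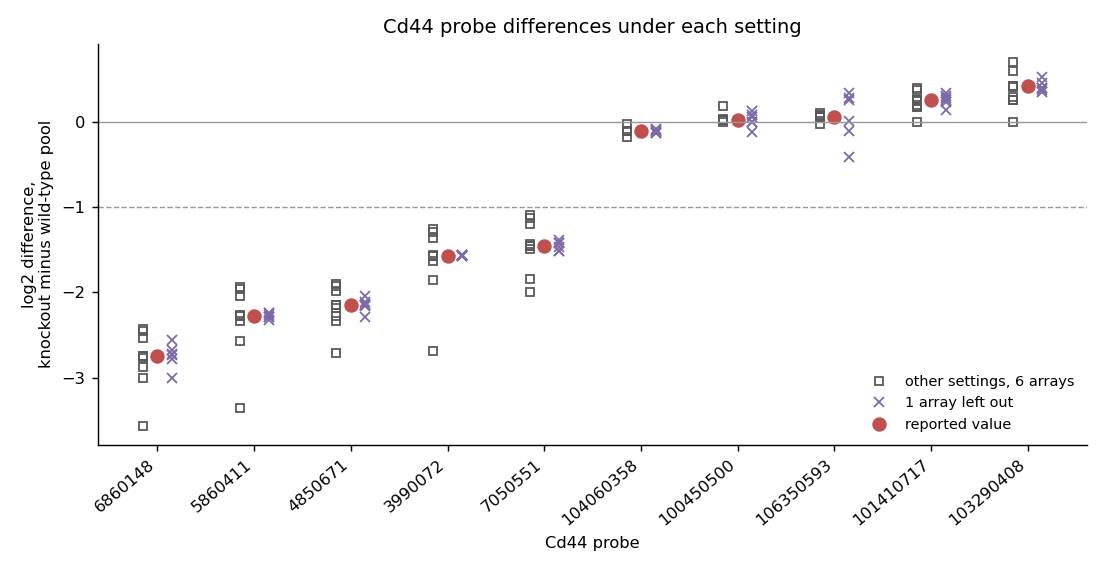
Log2 difference (knockout minus wild-type pool) of each Cd44 probe as reported (red), under the other settings with 6 arrays (squares; fewer where a filter removes the probe) and with 1 array left out (crosses); the dashed line marks 2-fold lower. The 5 lower probes stay under this line at every setting and the other 5 stay within 2-fold of 0.

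The annotated transcripts did not separate the probes that fell from those that did not. NM_009851 was the annotation of 8 probes, namely all 5 that fell and 3 that did not. Of these 3, probes 100450500 and 101410717 were above background on no wild-type array and could not show a fall. The comparison within this transcript thus rests on 106350593, whose spread was wide. The RefSeq table lists 11 transcripts for Cd44, 6 of them curated and 5 predicted, and the annotation names 1 of the 11. The probes annotated to AK045226 and BC025635 carry an accession of their own, and neither fell, but 106350593 held its signal under the shared accession. The BC025635 probe was above background on no array, so it could not show a fall either. Probe sequences and their places within the transcripts were not used here, so the probes could not be assigned to constant exons, variable exons or transcript ends.

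The lower probes did share their identifier range. Probe identifiers on this array fall in a block from 50014 to 7100750 and another from 100050014 to 107100746. All 5 Cd44 probes of the first block fell and none of the 5 of the second, of which 2 exceeded background on each wild-type array. Over the whole array, 7.29% of tested probes above background on all wild-type arrays in the first block and 4.24% in the second were lower past limma's threshold (adjusted p under 0.05 and at least 2-fold). The median log2 difference of these probes was 0.015 in the first block and 0.12 in the second. In 825 genes with such probes in both blocks, 78 had a fallen probe in the first block, and 73 of the 78 had none in the second. A second-block probe short of the 2-fold limit counted as not fallen. In 55 of the 78, all such second-block probes had log2 differences above -0.25. Of the same 825 genes, 27 had a fallen probe in the second block, and 22 of them had none in the first. No source used here says what the blocks stand for, and their part in the Cd44 result was not tested.

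Probes of a gene often lay on either side of the threshold inside the first block too. Of 373 genes with a fallen probe and at least 2 probes above background in that block, 91.4% had another such probe that did not fall. No gap between the probes was required, so a probe just short of the 2-fold limit counted as not fallen. In 32 genes all such probes fell. Cd44 belongs to those 32 when the first block is taken alone. Of the 15 genes with at least 5 tested probes above background on all wild-type arrays, Cd44 had the widest range of differences, 2.80 on the log2 scale against a median of 1.34. It was also the only one of these 15 with 5 or more probes at least 2-fold lower, which is a description, since the gene was chosen on these falls. Only 5 of the 15 had 6 or more such probes, and the rest could reach that count only if every probe fell. Among 96 genes with at least 4 such probes, 3 had a wider range, and among 2078 with at least 2 such probes, 21 did.

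**Figure D3:**
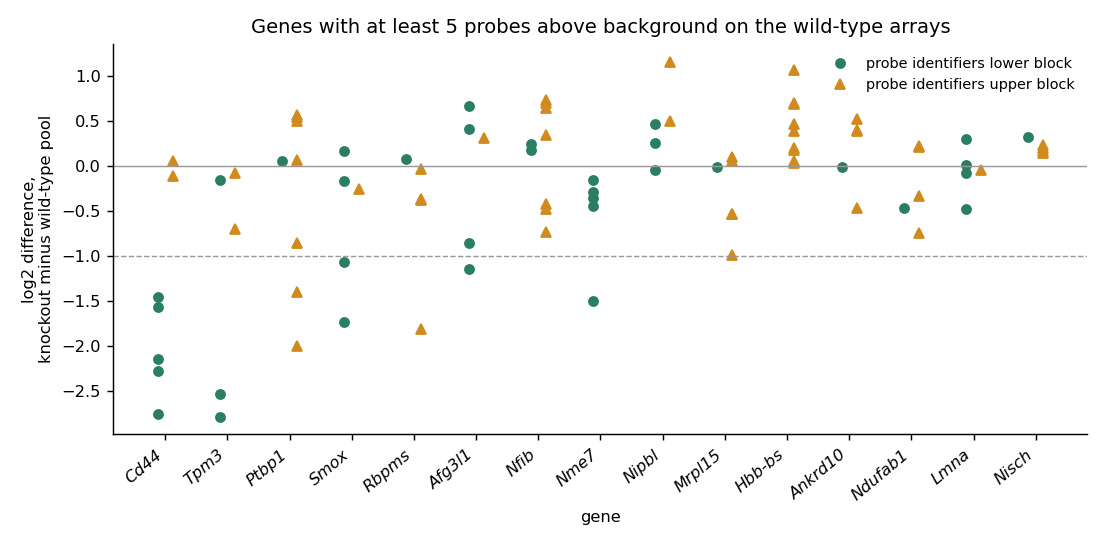
Log2 difference (knockout minus wild-type pool) of each tested probe above background on all wild-type arrays, for the 15 genes with at least 5 such probes, ordered by the range of their differences; circles and triangles are the lower and the upper block of probe identifiers, and the dashed line marks 2-fold lower. Cd44 shows 5 circles between -1.45 and -2.75 and 2 triangles close to 0, while the splicing gene Ptbp1 has triangles from -1.99 to 0.56.

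Genes that act with CD44 were then set beside it, in 6 lists with 101 genes, of which 78 had a tested probe. The brightest tested probe stood for a gene, and the threshold was limma's adjusted p under 0.05 over all tested probes together with a change of 2-fold or more. In the knockout pool 8 of the 78 genes were lower and 0 were higher. Over all 12096 genes taken the same way, 2.48% were lower and 1.12% higher. Without adjustment or a limit on size, 24 of the 78 were lower and 13 higher at a limma p under 0.05, where 18.1% of all genes were lower and 29.7% higher. Their median log2 difference was -0.0063, and that of all genes was 0.08. When any tested probe of a gene counted, 14 genes were lower and 2 were higher, with 1 gene, Srsf10, in both counts; counted this way, 5.38% of all genes were lower and 1.31% higher.

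Hyaluronan, the main ligand, is made by the synthases and cut by the hyaluronidases. Of 14 tested genes of its synthesis and turnover 1 fell, with a median of 0.10. The fall was in Gusb, the lysosomal beta-glucuronidase that removes end sugars, which read 280.8, 287.2 and 289.5 across the wild-type arrays, against 140.8, 110.9 and 120.6 across the knockout arrays. No knockout array was above background there, and this representing probe was at least 1.63-fold lower (limma adjusted p = 3.30e-06). Its measured log2 difference was -1.16, and -0.83 in the authors' deposited values, inside the 2-fold limit. Other tested probes of Gusb did not pass the threshold, with 5340377 at -0.55 and 102940133 at -0.03. Among the synthase genes Has3 was at 0.19 (SE 0.11, adjusted p = 0.190) and Has2 at 0.09 (adjusted p = 0.510). Cemip, whose product binds and breaks down hyaluronan, was at 0.70 (adjusted p = 3.66e-05), inside the 2-fold limit. Hyal2 was at 0.04 on its representing probe, and a dim probe of it passed the threshold at a bound of at least 1.07-fold lower.

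Other hyaluronan receptors and binding proteins held 0 calls among 9 tested genes, with 4 genes higher and 0 lower at an unadjusted limma p under 0.05, a cut that 29.7% of all genes passed as higher and 18.1% as lower. Stab1, a scavenger receptor of macrophages and sinus endothelium and the list's brightest member, was at 0.51 (SE 0.15, limma adjusted p = 0.0176). Lyve1, the hyaluronan receptor of lymphatic vessels, was at 0.23, and Hmmr, a hyaluronan-binding protein of dividing cells, at 0.04.

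Among 13 tested genes for other ligands and membrane partners of CD44, 3 fell, with a median of -0.22. Mif, a cytokine that signals through a complex of CD74 and CD44, read 1462.7, 1540.5 and 1394.2 across the wild-type arrays, against 512.4, 542.0 and 457.9 across the knockout arrays. The pools were well apart, and the log2 difference was -1.34 (SE 0.09, limma adjusted p = 3.15e-07). Cd74 itself was at -0.54 (adjusted p = 0.00022), short of the limit. The matrix ligands Fn1, fibronectin (-1.32, above background on 2 knockout arrays), and Col1a1, a chain of type I collagen (-1.12, adjusted p = 1.22e-06), completed the falls. The receptor gene Egfr was at 0.18 on its representing probe and at -0.07 on probe 105130452. Its dimmer probe 4920138 was at -0.77, short of the limit, with no knockout array above background.

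The tail of CD44 is tied to actin by ezrin, radixin and moesin, and signalling proteins act downstream. Of 15 tested genes 1 fell, Rhoa, with raw intensities of 4174.6, 4563.8 and 4331.2 across the wild-type arrays, against 1808.4, 1833.2 and 1741.9 across the knockout arrays. The log2 difference was -1.13 (SE 0.10, limma adjusted p = 1.89e-06). Ezr was at 0.18 and Rdx at -0.04. For Msn, the moesin gene, the representing probe 105570577 was at 0.30, but probe 4060044 read 1094.2, 1082.7 and 1009.4 for wild type and 189.5, 170.3 and 225.9 for knockout, a log2 difference of -2.36 (SE 0.17, limma adjusted p = 4.28e-07). Msn thus showed a split of the same kind as Cd44, with the fallen probe in the first block of identifiers; it was chosen after its values were seen. A dim probe of Iqgap1, a scaffold protein gene, was above background on the knockout arrays alone and at least 1.70-fold higher, with the representing probe at -0.14.

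CD44 is shed from the surface by ADAM10, ADAM17 and MMP14, and the remaining stub is cut by gamma-secretase. Of 9 tested genes in this list 0 passed the threshold, with a median of -0.35 and, at an unadjusted limma p under 0.05, 4 lower and 0 higher, against 18.1% and 29.7% of all genes. Psenen, a subunit of gamma-secretase and the brightest member, was at -0.66 (SE 0.11, limma adjusted p = 0.000336). Mmp9, which binds CD44 at the surface, was at -0.91 (SE 0.21, adjusted p = 0.00354). Adam17 was at -0.01, Mmp14 at -0.03 and Adam10 at -0.35 (SE 0.26).

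Proteins that have been tied to the choice of CD44 variable exons made up the last list, in which 3 of 18 tested genes fell, with a median of 0.0047. Tra2b, a splicing activator that promotes exon inclusion, read 1329.1, 1166.6 and 1437.3 across the wild-type arrays, against 225.1, 220.3 and 222.4 across the knockout arrays. Its log2 difference was -2.43 (SE 0.13, limma adjusted p = 2.92e-08), and that of probe 6130528 of the same gene -1.80. Hnrnph1, an hnRNP gene, was at -1.32 on its representing probe and at -2.11, -1.91 and -1.10 on others, the last at least 1.43-fold lower with no knockout array above background. Khdrbs1, which encodes the RNA-binding protein SAM68, was at -1.06 (adjusted p = 1.09e-06), with probe 6040040 at -0.96. In the authors' deposited values Khdrbs1 was at -0.95, inside the 2-fold limit.

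The epithelial splicing regulators, which favour the variant forms of CD44 in epithelial cells, did not pass. Esrp1 was at 0.19 (SE 0.09, limma adjusted p = 0.140) and Esrp2 at 0.16, with probe 520079 of Esrp2 at -0.62. Splits were again seen in this list, in genes picked after their values were known. Ybx1 was at 0.01 on its representing probe and at -2.16 on probe 4730500. Ptbp1 was at 0.07 on its representing probe and at -1.99 and -1.40 on probes 101170338 and 104920021, both in the second block of identifiers. Celf1 was at -0.55 on its representing probe and at -1.02 on probe 510022, and Srsf10 had a probe at -1.24 and another at 1.05.

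**Figure D4:**
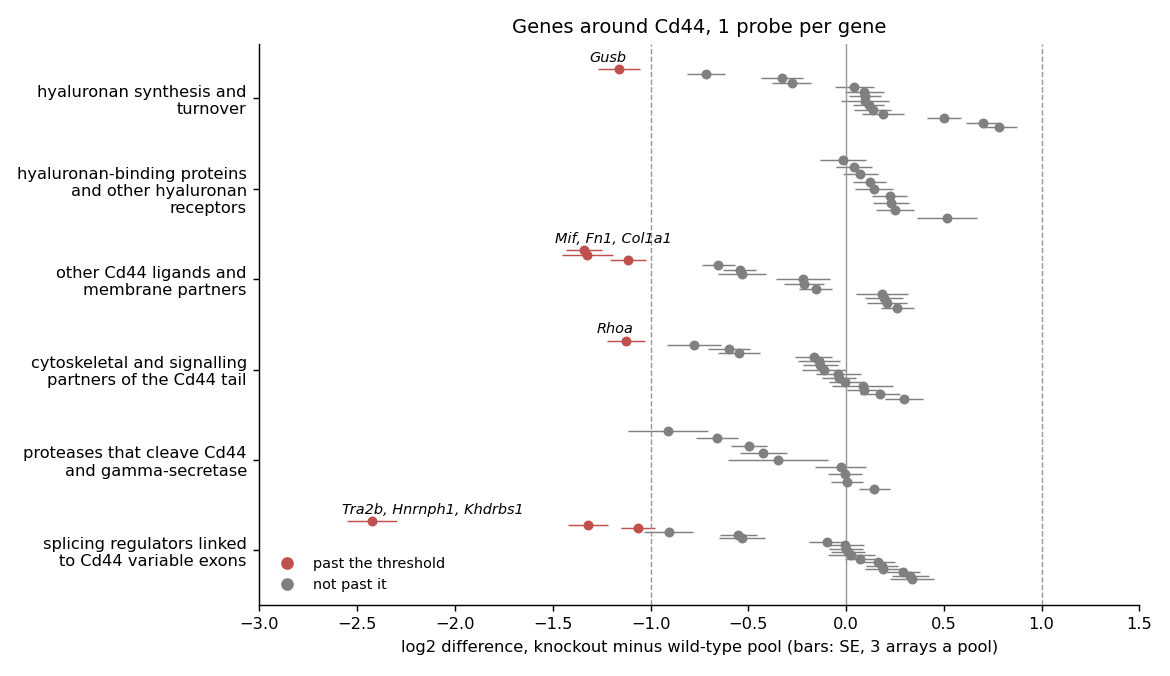
Log2 difference (knockout minus wild-type pool) of the tested genes in 6 lists around Cd44, 1 probe per gene, with the SE over 3 arrays a pool as bars; red points passed limma's adjusted p under 0.05 and the 2-fold limit (dashed lines), and their names stand above them in order from left to right. All 8 red points lie on the lower side, from Tra2b at -2.43 to Khdrbs1 at -1.06.

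Marker genes of cell types that carry CD44 were read as sums of raw intensity per array. For 8 basal keratinocyte markers the sum lay between 77161 and 78810 in the wild-type pool and between 65184 and 77834 in the knockout pool, with 0 of 8 past the limma threshold and, at an unadjusted p under 0.05, 3 higher and 1 lower. Krt14 alone made up 59.4% to 63.2% of this sum, and the other 7 markers summed to between 28736 and 29794 for wild type and between 24800 and 31612 for knockout. For 6 leukocyte markers it lay between 3830 and 4104 and between 4142 and 5584, with 0 past limma's threshold and, unadjusted, 3 higher and 2 lower. Ptprc, the defining leukocyte marker, was above background on 2 wild-type arrays and no knockout array. The raw sum of 6 macrophage markers was lower in the knockout pool, at 2129 to 2835 against 3094 to 3488, and 1 of them, Lyz2, passed the threshold as lower. After normalization their median log2 difference was 0.04, and 2 of the 6 were below 0. Unadjusted, 1 was higher and 1 lower, where 29.7% of all genes were higher and 18.1% lower. The sum of 8 fibroblast markers dropped from between 8354 and 9265 to between 3264 and 4533. Lum, Col1a1 and Col3a1 passed as lower, and Fap was above background on no array. After normalization the median log2 difference of the 8 was -0.76 and, unadjusted, 7 were lower and 0 higher. The part of these cell types in the Cd44 result was not tested.

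The neighbours of Cd44 on chromosome 2, which also carries Atf2 with 141 other tested genes between them, moved in either direction or stayed within the limit. Of the 10 nearest tested genes, 5 on each side, 1 rose and 1 fell, where 1.12% of all genes were higher and 2.48% lower. Traf6, an adaptor of innate immune signalling, was at 1.03 (SE 0.09, limma adjusted p = 1.69e-06) and Elf5, an epithelial transcription factor gene, at -1.15 (SE 0.11, limma adjusted p = 6.00e-06). In the authors' deposited values both lay just inside the 2-fold limit, at 0.99 and -0.98. The others were Commd9 (0.35), Ldlrad3 (0.31), Trim44 (0.59), Fjx1 (0.43), Apip (0.13), Cat (-0.32), Abtb2 (0.18) and Nat10 (0.13). Fjx1 and Apip lie next to Cd44 among tested genes, and neither fell.

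The genes most like Cd44 over the 6 arrays depended on which probe stood for it. Against probe 104060358, the brightest, the highest Pearson correlations among 8483 named genes were those of Ergic2 (0.996), Cyb5r4 (0.986), Cyb5a (0.984), Seh1l (0.984) and Nfat5 (0.982), whose log2 differences ran from -0.28 to -0.19. Against probe 6860148, a comparison added after the values were seen, they were those of Rhoa, Adh5, Capzb, Atp2a2 and Parl, from 0.9992 to 0.9996, with differences from -1.72 to -1.13. The 6 arrays share 2 RNA pools, and the correlations are given as a description.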

How the data were processed

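Total RNA pooled from papillomas carried Cy3 on 6 Illumina bead arrays, grouped by the genotype in their titles. Per the file headers, the authors deposited a linear raw intensity for each probe, with no detection p, and the submitters' processing notes name BeadStudio 3. A deposited table of log2 values, whose columns share a distribution and keep each array's rank order (method not given in the sources used here), was used as an alternative. Raw intensities were corrected with limma's normexp method (offset 50), converted to log2 and quantile-normalized. The 23058 probes above the median mean signal were tested with limma (lmFit, eBayes with trend; limma 3.58.1, R 4.3.3), two-sided, with Benjamini-Hochberg adjustment. The call threshold combined an adjusted p under 0.05 with a log2 difference of 1 or more in either direction. The offset shrinks differences of dim probes. The number of arrays limits the precision.

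Genes were named from the platform annotation (29534 probes with 1 symbol, 11 with several, 16571 with none or not listed), and 29476 symbols were looked up in the RefSeq table of assembly GRCm38.p6, with 0 changed. The Cd44 probes, gene lists, limits and alternatives were chosen with earlier results of these data known. Named genes are all Cd44 probes, up to 2 rises and 2 falls per list around Cd44 or its brightest member, those completing a count of 5 or fewer, the 5 genes most like the brightest Cd44 probe and 5 neighbours on each side; others were picked for comparison after their values were seen. Marker lists of basal and suprabasal keratinocytes, leukocytes, macrophages, T cells, fibroblasts, endothelium and skeletal muscle were read the same way. Alternatives tried were the deposited values, other background corrections and offsets, other normalizations, other filters on dim probes, a replicate block and leaving out each array.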

Additional observations from a re-analysis of the deposited data

How the results depend on the processing

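The median difference over the 7 Cd44 probes above background on all wild-type arrays was -1.57. It was -1.26 with the authors' deposited values, -1.36 without background correction, -2.68 with the most frequent intensity subtracted and a floor of 50, -1.85 with an offset of 16, -1.29 with an offset of 100 and -2.14 over the 5 of these probes above background on all 6 arrays. That filter left 3 lower Cd44 probes, since it removes 3990072 and 7050551; the count was 5 at every other setting. The brightest probe was at -0.027 with 75th percentile scaling and -0.18 with cyclic loess. The number of probes called was 1126, and 748 with the deposited values, 2027 with the floor of 50 and 635 among probes above background on all 6 arrays. Calls among the 10 neighbours fell from 2 to 0 with the deposited values and with an offset of 100, and to 1 with cyclic loess. Lower calls among the genes around Cd44 ran from 6 to 10, with 0 higher at each setting. The tested genes numbered 78 in the reported setting, and the tested set changed with the filter. Gusb, Khdrbs1, Elf5 and Traf6 lay inside the 2-fold limit at some settings; no called gene changed sign. Leaving out each array in turn gave medians from -1.58 to -1.56 for the Cd44 probes, each the value of probe 3990072 alone. Probe 6860148 then ran from -3.01 to -2.56 and probe 106350593 from -0.41 to 0.33. The brightest probe ran from -0.13 to -0.09, and the count of lower Cd44 probes stayed at 5. Calls ran from 1095 to 1183 probes, 8 to 10 lower and 0 higher genes around Cd44, and 1 to 2 neighbours (1 without knockout array 3). With the replicate number as a block 1128 probes were called. Same-numbered arrays deviated together with correlations of 0.11, -0.13 and 0.04, and 2 of 6 arrays were closest to their own number, so the numbers do not pair the arrays.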

Other observations

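Other marker lists did not follow a common direction. Of 5 tested suprabasal keratinocyte markers, Krt10 rose (log2 difference 1.52) and Ivl fell (-1.01). Lyz2 fell (-1.40) among 6 macrophage markers, and Myl1 and Acta1 fell among 6 skeletal muscle markers, whose median log2 difference was -0.56. All 6 of these muscle markers were below 0, and 5 were lower and 0 higher at an unadjusted limma p under 0.05. Of 6 T cell and 6 endothelial markers 0 passed limma's threshold; at an unadjusted limma p under 0.05, 2 T cell markers were higher and 0 lower, and 0 endothelial markers were higher and 2 lower, where 29.7% of all genes were higher and 18.1% lower. Of the T cell markers 3 were above background on no array.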
